A study of Mus musculus with 19 samples.

Results

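Transcripts of 9 genes that are characteristic of fat cells, Cfd, Cidea, Cidec, Mogat1, Cd36, Fabp4, Plin1, Plin4 and Adipoq, were followed in 19 bulk mouse liver libraries, 1 per mouse. They are 9 of the 55836 genes in the deposited table and were taken by symbol, as genes of adipocytes of which several are targets of PPARG that rise in steatosis. Livers came from male wild-type C57BL/6 mice, 8 weeks old at the start, that ate for 8 weeks either a control diet (CD), with fat at 10 kcal% and sucrose to match, or a MASH diet (MD), with fat at 40 kcal%, fructose at 20 kcal% and cholesterol at 2%. They were gavaged over the same weeks with polyethylene particles (PE, 2 mg per mouse and day) or with vehicle (Veh). CD + Veh had 4 mice, and 5 mice each were in the groups MD + PE, MD + Veh and CD + PE. No animal carried a transgene or a deletion, and as mice of a group shared their housing, cage and group cannot be told apart. Bulk tissue mixes hepatocytes with the other cells of the liver, so that more cells of a type and more RNA per cell cannot be told apart.

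In white fat, PPARG is the nuclear receptor that drives adipocyte formation, and it binds DNA with a retinoid X receptor at direct repeats of a short core sequence. Hepatocytes normally contain little of it, and in fatty liver it rises together with genes that take up fatty acids and coat or enlarge lipid droplets. Cfd (adipsin, complement factor D) and Adipoq (adiponectin) are secreted by adipocytes. Plin1 and Plin4 are perilipins of the droplet surface, Cidea and Cidec mediate the exchange and fusion of lipid droplets, Mogat1 makes diacylglycerol from monoacylglycerol, Cd36 takes up long-chain fatty acids at the cell surface, and Fabp4 carries them in the cytoplasm.

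The promoters of 3 members are printed, that of Cfd for its diet difference, that of Plin4 for its PE values, and that of Mogat1 because its window holds a nuclear receptor core sequence. Each is the sense strand of the 250 bases before the start of the canonical transcript in GRCm39 (GENCODE vM39), and none holds an annotated exon. They are chr10:79726418-79726667 (plus strand) for Cfd, chr1:78488193-78488442 (plus) for Mogat1 and chr17:56416932-56417181 (minus) for Plin4. Capitals mark the motif matches.
Cfd: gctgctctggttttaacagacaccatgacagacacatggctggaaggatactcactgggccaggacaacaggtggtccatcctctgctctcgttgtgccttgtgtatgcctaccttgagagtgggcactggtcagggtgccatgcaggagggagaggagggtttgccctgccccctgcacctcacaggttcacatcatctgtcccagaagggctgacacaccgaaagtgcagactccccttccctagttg
Mogat1: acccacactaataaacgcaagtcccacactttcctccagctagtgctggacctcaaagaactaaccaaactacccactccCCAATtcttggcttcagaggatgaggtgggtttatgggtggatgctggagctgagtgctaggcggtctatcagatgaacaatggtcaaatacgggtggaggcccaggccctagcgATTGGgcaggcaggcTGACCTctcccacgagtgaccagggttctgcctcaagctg
Plin4: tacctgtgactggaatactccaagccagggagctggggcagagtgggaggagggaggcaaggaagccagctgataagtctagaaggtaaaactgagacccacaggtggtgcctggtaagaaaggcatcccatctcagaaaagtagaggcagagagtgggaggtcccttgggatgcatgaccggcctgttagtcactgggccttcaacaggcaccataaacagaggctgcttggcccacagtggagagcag
Searched on both strands were the direct repeat AGGTCANAGGTCA, the nuclear receptor core AGGTCA that lies inside it, the TATA box TATAAA, the box CCAAT, and the palindrome TTGCGCAA that C/EBP factors bind. The core was found 40 bases before the start of Mogat1 on the antisense strand. It was present in 2 of 9 members and in 13.1% of the 21770 promoters of protein-coding genes. CCAAT was present in 3 of 9 members (Cidec, Mogat1 and Adipoq) and in 36.5% of all promoters. The other motifs were in no member's window. They were in 0.0367% (the repeat), 11.9% (TATAAA) and 0.165% (TTGCGCAA) of all promoters. These are matches of letters in a short window and say nothing of binding.

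On CD the libraries held 13940970 to 15456729 counts with vehicle and 10398820 to 12654401 with PE, and on MD they held 13406037 to 15417813 and 11163063 to 12757617. The PE libraries were the shallower ones in each diet. Levels are CPM, that is counts scaled to a common library size by TMM, and 7 of the 9 members passed the filter on low counts, with Plin1 and Adipoq below it. The 10 hepatocyte markers were abundant in every library, as the liver label says. Their sum on CD was 83599 to 98994 CPM with vehicle and 73613 to 104436 CPM with PE, and on MD it was 60536 to 74664 and 56894 to 75031 CPM, without overlap between the diets with vehicle. Of these 10 markers, 1 was called higher and 3 lower in MD + Veh than in CD + Veh, and their part in the members' levels was not tested. Ucp1, which marks brown fat, had no count in any of the 19 libraries. Of the libraries, 4 stood apart by markers of other cells. MD + PE replicate 2 held 1191 CPM of 10 bile duct and gallbladder markers (at most 111 in any other library), CD + PE replicate 2 held 834 CPM of 12 macrophage markers (at most 433), and CD + PE replicate 1 held 423 CPM of 10 skeletal muscle markers. MD + Veh replicate 1 held 66 counts of Adipoq, 63 of Plin1, 48 of Lep (leptin) and 21 of Retn (resistin), against at most 9, 6, 2 and 7 in the other 18 libraries, and 3108 CPM of the muscle markers. The muscle markers were also at 195 and 135 CPM in MD + Veh replicates 2 and 3, and at most 37.7 CPM in the rest. CD + Veh replicate 2 had 6 counts each of Adipoq and Plin1.

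The 9 genes were selected on their levels in these livers, as adipocyte genes raised on MD against CD, so their diet differences are described without a test. Groups that do not overlap, with the first higher, were seen in 7.37% of the 13597 genes tested between MD + Veh and CD + Veh and in 2.21% between MD + PE and CD + PE. By edgeR's quasi-likelihood test at an adjusted p below 0.05 and a log2 change of at least 0.38, 4.74% and 1.69% of genes were called higher in MD. Nothing is read from these shares, because the diet differences fixed the choice of members.

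Cfd had the largest diet difference. It was at 0.435, 1.65, 0.134 and 0.337 CPM in the 4 CD + Veh livers and at 66.9, 133, 224, 84.2 and 88.6 CPM in the 5 MD + Veh livers. The 5 CD + PE livers had 1.08, 1.49, 2.12, 0.502 and 0.889 CPM, and the 5 MD + PE livers had 112, 207, 164, 68.4 and 211 CPM. No MD library overlapped any CD library, and the raw counts went from 2 to 24 in the 9 CD libraries to 996 to 3286 in the 10 MD libraries. The fitted log2 difference was 7.56 ± 0.578 (SE) between MD + Veh and CD + Veh and 6.94 ± 0.498 between MD + PE and CD + PE. MD + Veh replicate 1, with the most Adipoq and Plin1, had the lowest Cfd of the 10 MD libraries (66.9 CPM), and the first difference was 7.73 without it and 8.57 without CD + Veh replicate 2.

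The droplet fusion genes Cidea and Cidec followed, from a low base. Cidea had 2 counts in all 4 CD + Veh libraries together and 319 in the 5 MD + Veh libraries, a ratio of 132 with a 95% counting interval of 36.1 to 1092 that leaves out the spread between mice. In the PE libraries it had 7 counts on CD and 240 on MD, a ratio of 30.6 (14.6 to 77). Replicate 3 of CD + PE held 5 of those 7 counts, and the fitted log2 difference went from 4.83 to 6.13 without it. Per library, Cidea was at 3.55, 3.16, 9.41, 3.56 and 2.16 CPM in MD + Veh and at 4.47, 2.61, 1.13, 5.08 and 6.02 CPM in MD + PE, with no CD library above 0.441 CPM. Replicate 3 of MD + Veh was far above the other 4 of its group.

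Cidec was at 2.80, 1.15, 0.604 and 2.02 CPM in CD + Veh and at 27.3, 22.1, 20.9, 13.8 and 6.72 CPM in MD + Veh. The PE groups had 1.16, 0.702, 2.21, 0.904 and 1.48 CPM on CD and 21.9, 28.0, 9.91, 59.9 and 20.02 CPM on MD. Here too the diets did not overlap, and the spread among MD livers reached 6.04-fold in MD + PE. The log2 difference was 3.45 ± 0.529 with vehicle and 4.43 ± 0.522 with PE. Cideb, the family member that hepatocytes always express, lay at 224 ± 17.5 CPM (SD) in CD + Veh and at 241 ± 16.6 CPM in MD + Veh.

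Mogat1 was scarce, with 1 to 9 counts in the CD libraries and 15 to 78 in the MD libraries. Its levels were 0.435, 0.358, 0.0671 and 0.269 CPM in CD + Veh and 1.33, 4.83, 3.41, 2.01 and 1.24 CPM in MD + Veh, and the log2 difference was 3.14 ± 0.524. With PE the levels were 0.581, 0.263, 0.795, 0.201 and 0.593 CPM on CD and 1.22, 1.68, 1.48, 3.16 and 1.71 CPM on MD, a log2 difference of 1.91 ± 0.473. The MD libraries were all above the CD libraries in both comparisons.

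The carriers Cd36 and Fabp4 were already present on CD. With vehicle, Cd36 was at 16, 29.9, 8.86 and 32.7 CPM on CD and at 108, 136, 121, 97.7 and 66.3 CPM on MD. With PE it was at 33.7, 37.1, 55.4, 14.2 and 30.8 CPM on CD and at 86.1, 120, 89.3, 129 and 128 CPM on MD. The lowest MD library was thus above the highest CD library, and the log2 differences were 2.28 ± 0.355 with vehicle and 1.69 ± 0.320 with PE. Fabp4 had the smallest difference of the 7 members past the filter. It was at 7.59, 8.24, 6.17 and 6.60 CPM in CD + Veh and at 29.2, 16.8, 18.6, 9.21 and 11.7 CPM in MD + Veh. In the PE groups it was at 6.14, 7.98, 4.68, 5.42 and 8.30 CPM on CD and at 11.5, 10.6, 14.1, 37.6 and 13.6 CPM on MD. The log2 difference was 1.26 ± 0.357 with vehicle, 1.00 ± 0.340 without MD + Veh replicate 1, and 1.43 ± 0.341 with PE, where leaving out MD + PE replicate 4 gave 0.94. The gap between the diets was narrow, with 9.21 CPM as the lowest MD + Veh and 8.24 CPM as the highest CD + Veh value.

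Among the perilipins, Plin4 differed by diet and Plin1 was almost absent. Plin4 was at 4.23, 6.95, 4.43 and 7.27 CPM in CD + Veh and at 47.5, 39.6, 30.8, 29.1 and 12.8 CPM in MD + Veh. It was at 10.4, 6.14, 18.0, 9.24 and 15 CPM in CD + PE and at 41.3, 69.1, 54.9, 78.3 and 74.1 CPM in MD + PE. The diets did not overlap in either pair, and the log2 differences were 2.49 ± 0.348 and 2.43 ± 0.311. Plin1 had 0 to 6 counts in 18 libraries and was at 0 in 9 of them, and MD + Veh replicate 1 had 63. Its log2 difference between MD + Veh and CD + Veh was 2.81 ± 1.26, and it was 0.11 ± 1.19 without that library, 4.86 without CD + Veh replicate 2, and 2.17 ± 1.47 with both left out.

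Adipoq, which adipocytes make in bulk, had the same layout as Plin1. It was at 0 in 11 libraries and had 66 counts in MD + Veh replicate 1, 9 in MD + Veh replicate 2 and at most 6 elsewhere. The log2 difference between MD + Veh and CD + Veh was 2.93 ± 1.29 with all libraries and 0.53 ± 1.29 without MD + Veh replicate 1. It was 4.97 without CD + Veh replicate 2 and 2.59 ± 1.58 with both left out, and in the PE groups it was -0.10 ± 1.70. For both genes the groups overlapped, and fitted values this close to no counts depend on the prior count of the fit.

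**Figure D1:**
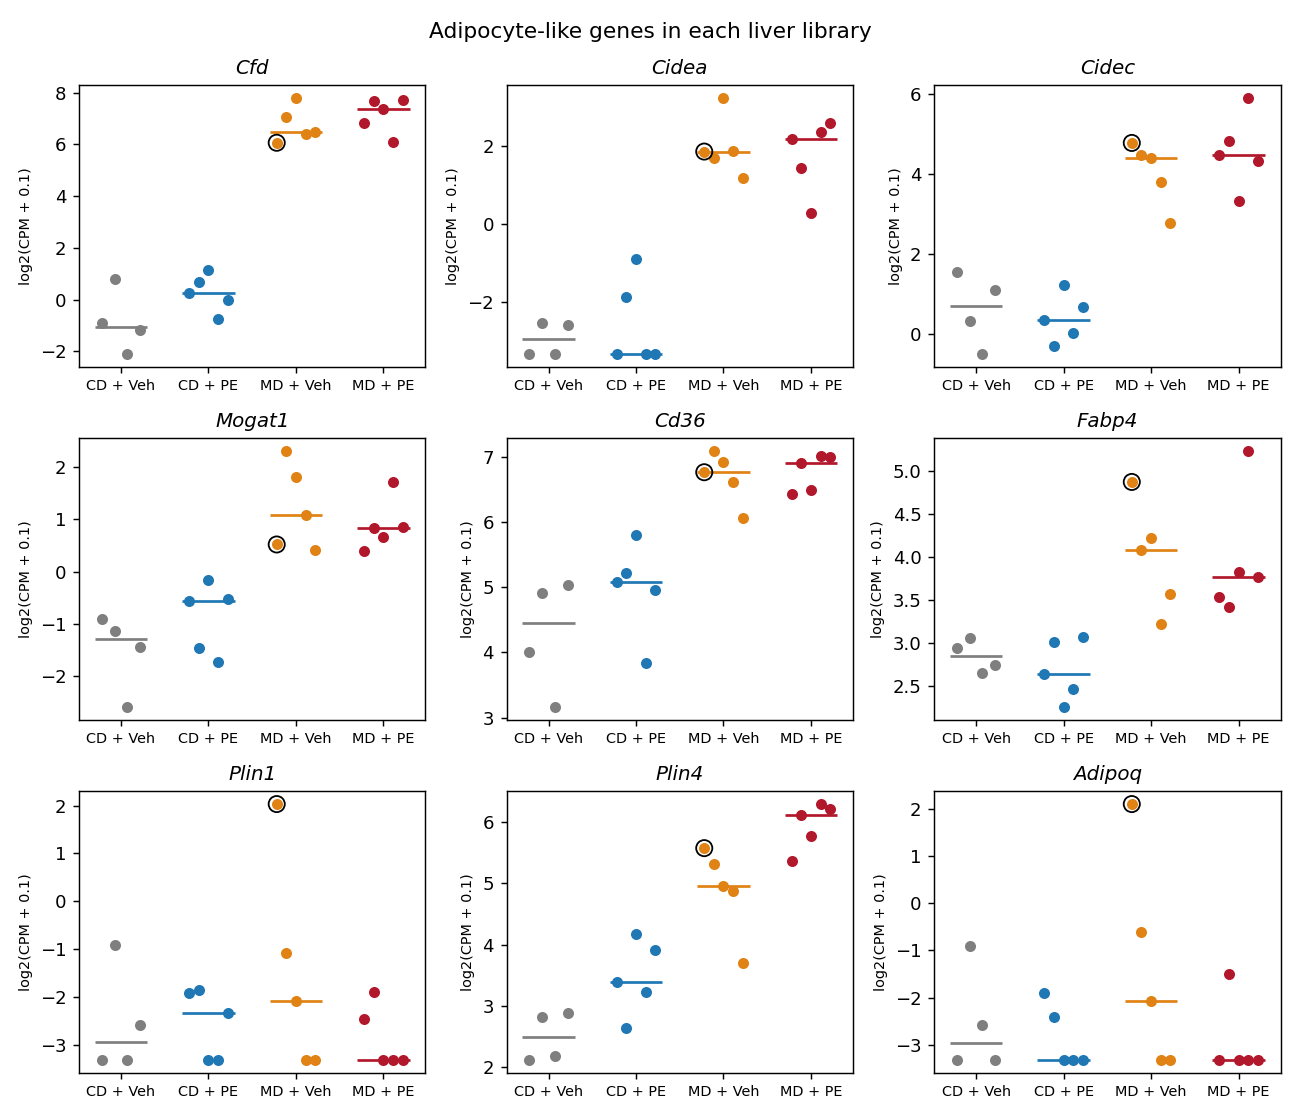
Level of each of the 9 genes in every liver library, as log2(CPM + 0.1) on a separate scale per gene, with groups on the horizontal axis, 1 point per library, a line at the group median, and MD + Veh replicate 1 circled. In 7 genes the MD libraries lie above the CD libraries on the same gavage, while Plin1 and Adipoq are high in the circled library (3.99 and 4.18 CPM).

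Per length of the canonical transcript, the order of the 9 levels changed with the diet. In CD + Veh, Cd36 (6.24 ± 3.24 CPM per kb, SD) and Fabp4 (5.26 ± 0.688) were highest and overlapped each other, and Plin4 (0.768 ± 0.217), Cfd (0.679 ± 0.728) and Cidec (0.574 ± 0.338) overlapped at a lower level. In MD + Veh, Cfd led with 127 ± 67.4 CPM per kb, and its lowest library (71.2) was above the highest Cd36 library (38.8). Cd36 (30.2 ± 7.50) and Fabp4 (12.6 ± 5.70) came next and overlapped, and so did Cidec (6.34 ± 2.79), Plin4 (4.29 ± 1.75), Cidea (3.45 ± 2.27) and Mogat1 (2.07 ± 1.24), each with its neighbour. Adipoq (0.737 ± 1.37) and Plin1 (0.300 ± 0.579) were last in MD + Veh, while Cidea (0.0274 ± 0.0317) was last in CD + Veh. In MD + PE the order was the same, with 162 ± 65.6 CPM per kb for Cfd and 8.53 ± 2.05 for Plin4.

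The rule that chose the members does not name PE exposure. The choice was made with earlier results of these data known, and the PE comparison shares its vehicle libraries with the diet comparison. By edgeR no member was called higher or lower with PE in either diet, where 2.92% (CD) and 1.08% (MD) of all genes were called, and none was called in the interaction of PE and diet, where 0.00735% were. Cidea and Mogat1 had at most 5 and 9 counts in a CD library and passed the filter through their MD libraries. Their tests on CD could hardly have given a call. At an unadjusted p below 0.05 there was 1 of 7 members in each diet, Plin4, beside 17.5% of genes on CD and 15.7% on MD, and 0 in the interaction beside 8.77%. The median log2 difference over the 9 members, fitted without a filter, was 0.64 on CD and 0.03 on MD, against 0 and -0.000804 over all 26185 genes of that fit.

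Plin4 had the most marked PE values. On CD, 4 of 5 PE livers were above the highest vehicle liver (7.27 CPM), and the log2 difference was 1.04 ± 0.349 with an adjusted p of 0.105 by edgeR. On MD, 4 of 5 PE livers were above the highest vehicle liver (47.5 CPM), and the difference was 0.99 ± 0.289 with an adjusted p of 0.0894, or 1.18 and 0.0725 without MD + Veh replicate 1. The interaction was -0.05 ± 0.441 (adjusted p = 0.986), so the interval around it still allows a sizeable difference between the diets. DESeq2, which called 3.85% and 2.18% of genes, called Plin4 in both diets (log2 1.04, adjusted p = 0.0208 on CD, and 1.00, adjusted p = 0.0214 on MD) and no member in the interaction, where it called 0.625% of genes. A comparison averaged over both diets, added after the values had been seen, gave 1.01 ± 0.227 with an adjusted p of 0.00926 by edgeR, in a test that called 3.08% of genes, and 1.12 with an adjusted p of 0.00586 without MD + Veh replicate 1. Plin4 was singled out in the study on these same livers, so its test here is not independent evidence.

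All PE libraries carry later library numbers than all vehicle libraries, so that PE and library order cannot be told apart in either diet. A term for a division set after library number 45, a point that no batch label marks, gave Plin4 differences of 1.95 on CD and 1.60 on MD (adjusted p = 0.0949 and 0.0958 by edgeR). The term is estimated only from MD + Veh, which it divides, because on CD it coincides with PE. Against the 3 MD + Veh libraries before that point, the MD difference was 0.70 (adjusted p = 0.176). Those libraries held 3108, 195 and 135 CPM of skeletal muscle markers, and the later MD + Veh libraries held 15.2 and 2.78 CPM. Within MD + Veh, the division and these markers therefore cannot be told apart. The clock score, which is the mean log2 level of Bmal1, Clock and Npas2 less that of Dbp, Nr1d1, Nr1d2, Per3 and Tef, lay on CD between -5.65 and -4.55 with vehicle and between -3.94 and -0.21 with PE, and on MD between -3.28 and -0.85 with vehicle and between -2.86 and -1.02 with PE. With it as a covariate Plin4 differed with PE by 1.21 on CD (adjusted p = 0.174) and 0.96 on MD (adjusted p = 0.103). On CD the scores with vehicle and with PE did not overlap, so the CD value rests on extrapolation. The scores of CD + Veh and MD + Veh did not overlap either, so diet and score cannot be told apart with vehicle.

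The secreted and droplet genes gave no call with PE. Cfd differed by 0.98 ± 0.768 on CD (adjusted p = 0.572) and 0.35 ± 0.339 on MD (adjusted p = 0.671). Cidec differed by -0.36 ± 0.640 on CD and 0.62 ± 0.398 on MD, and Cidea by 1.66 ± 1.32 and -0.18 ± 0.477, all with adjusted p above those of Plin4. For Cidea on CD this compares 7 counts with 2.

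The uptake and synthesis genes were not called either. Cd36 differed with PE by 0.65 ± 0.343 on CD (adjusted p = 0.348) and 0.06 ± 0.307 on MD (adjusted p = 0.952), Mogat1 by 0.77 ± 0.583 and -0.47 ± 0.405, and Fabp4 by -0.14 ± 0.368 and 0.03 ± 0.319. Mogat1 had the interaction furthest from 0 in units of its error, -1.24 ± 0.711 (adjusted p = 0.658). In the fit without a filter, Plin1 and Adipoq differed on MD by -3.97 and -4.08 (adjusted p = 0.193 for each), and by -1.27 and -1.69 without MD + Veh replicate 1.

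**Figure D2:**
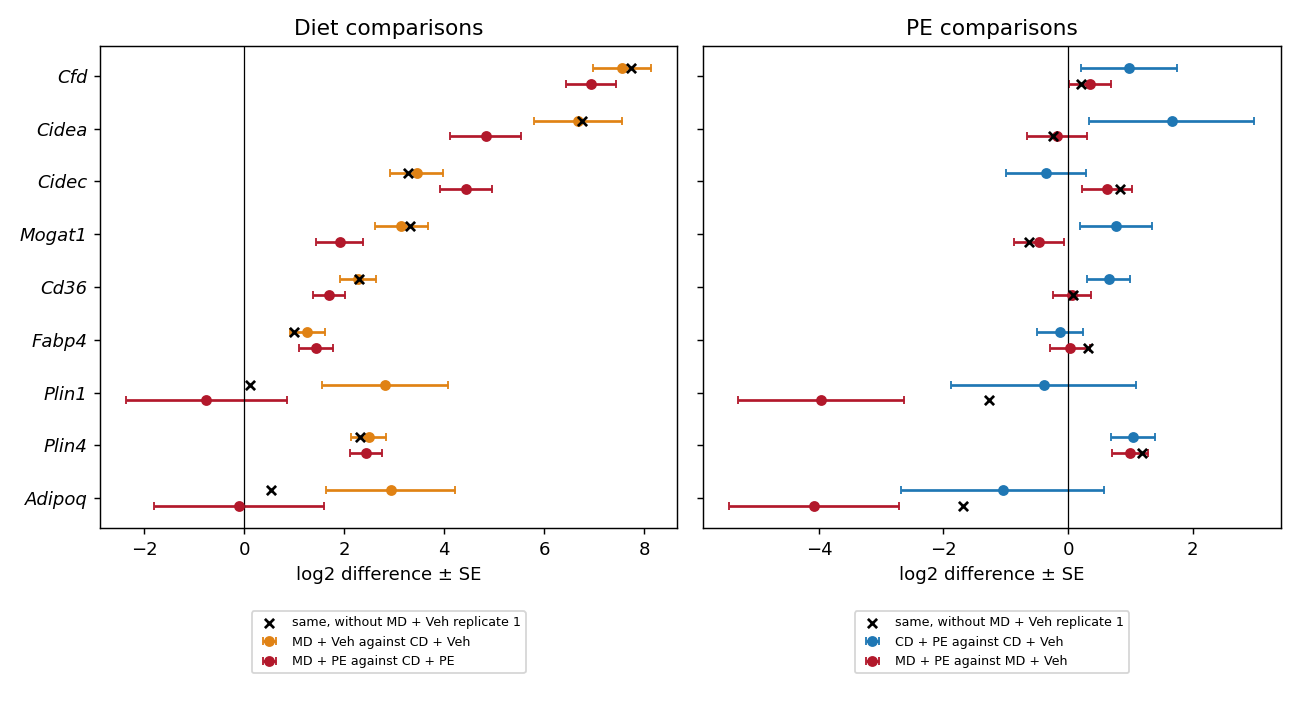
Fitted log2 difference with its SE for each gene, diet comparisons on the left and PE comparisons on the right, with crosses for the fit without MD + Veh replicate 1. The diet differences of 7 genes lie between 1.26 and 7.56 in the vehicle groups, while those of Plin1 and Adipoq drop to 0.11 and 0.53 at the crosses. The Plin4 points on the right are near 1 in both diets.

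MD + PE replicate 4 had the highest Cidec (59.9 CPM), Fabp4 (37.6 CPM) and Plin4 (78.3 CPM) of the 10 MD livers and the ninth highest Cfd (68.4 CPM). MD + Veh replicate 3 had the highest Cfd (224 CPM) and Cidea (9.41 CPM), and MD + Veh replicate 2 the highest Mogat1 (4.83 CPM) and Cd36 (136 CPM). MD + Veh replicate 5 was lowest for Cidec, Cd36 and Plin4 (6.72, 66.3 and 12.8 CPM). Over the 19 libraries, with group means removed, Pearson's r between members ran from 0.67 for Cidec with Mogat1 down to 0.000442 for Cfd with Cidec and -0.175 for Cfd with Fabp4. Of the 21 pairs, Cfd with Fabp4 was the one below 0. Cidec with Plin4 had 0.654 and Cfd with Cd36 0.616. Without MD + Veh replicate 1, r was 0.828 for Cidec with Mogat1, and it went from 0.548 to 0.754 for Mogat1 with Plin4 and from 0.276 to 0.515 for Mogat1 with Fabp4. The points share library and depth, and these values are descriptions.

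Beyond the members, 12440 genes averaging 1 CPM or more were ranked by the same r. Closest to Cidec were Plac9 (0.899), Itprip (0.837) and Krt8 (0.823), a keratin of hepatocytes. Closest to Cfd were Rwdd2b (0.815), Pmm1 (0.779) and Hpgd (0.766), and closest to Plin4 were Vldlr, the receptor for very low density lipoprotein (0.882), Ildr2 (0.872) and Zfand3 (0.854). Leaving out MD + Veh replicate 1 moved these values to between 0.747 and 0.928.

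**Figure D3:**
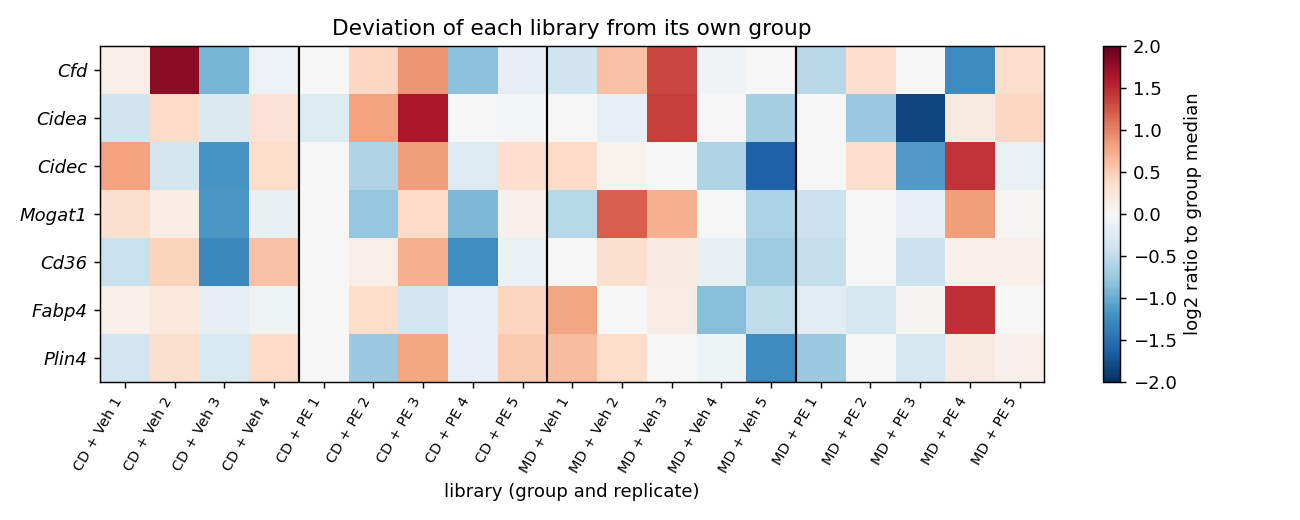
Deviation of each of the 19 libraries (columns, vertical lines between groups) from the median of its own group, as a log2 ratio with a prior count of 2, for the 7 genes past the filter (rows). MD + PE replicate 4 is high in Cidec and Fabp4 (1.44 and 1.46) and low in Cfd (-1.26), and MD + Veh replicate 3 is high in Cfd and Cidea (1.34 and 1.38).

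Among the MD livers, adipocyte-defining transcripts did not follow Cfd. In CD + Veh, replicate 2 had the most Adipoq and Plin1 (6 counts each) and also the most Cfd (23 counts). In CD + PE, replicate 3 had the most Cfd (24 counts) with 0 counts of Adipoq and Plin1. The 13 further adipocyte markers hold Adrb3 and Lipe, which were counted in every library (at least 53 and 97 counts). The other 11 summed on CD to between 0.336 and 1.22 CPM with vehicle and 0.618 and 1.41 CPM with PE. On MD the sum ran from 0.697 to 14.2 CPM with vehicle, with replicate 1 at the top, and from 0.731 to 4.04 CPM with PE. Lep was at 0 in 15 libraries and Retn in 14. By counts, 9 of the 13 were highest in MD + Veh replicate 1. Adrb3 (173 there, 190 at most elsewhere), Lgals12 (9 and 26) and Aqp7 (16 and 26) peaked in other libraries. Only 2 of the 13 passed the filter, and neither was called in any comparison. Replicates 4 and 5 of MD + Veh and 3, 4 and 5 of MD + PE had no count of Adipoq or Plin1 at all, and held 1088, 1147, 1891, 996 and 2345 counts of Cfd. With MD + Veh replicate 1 and CD + Veh replicate 2 both left out, the diet difference of Cfd was 8.73 ± 0.635.

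**Figure D4:**
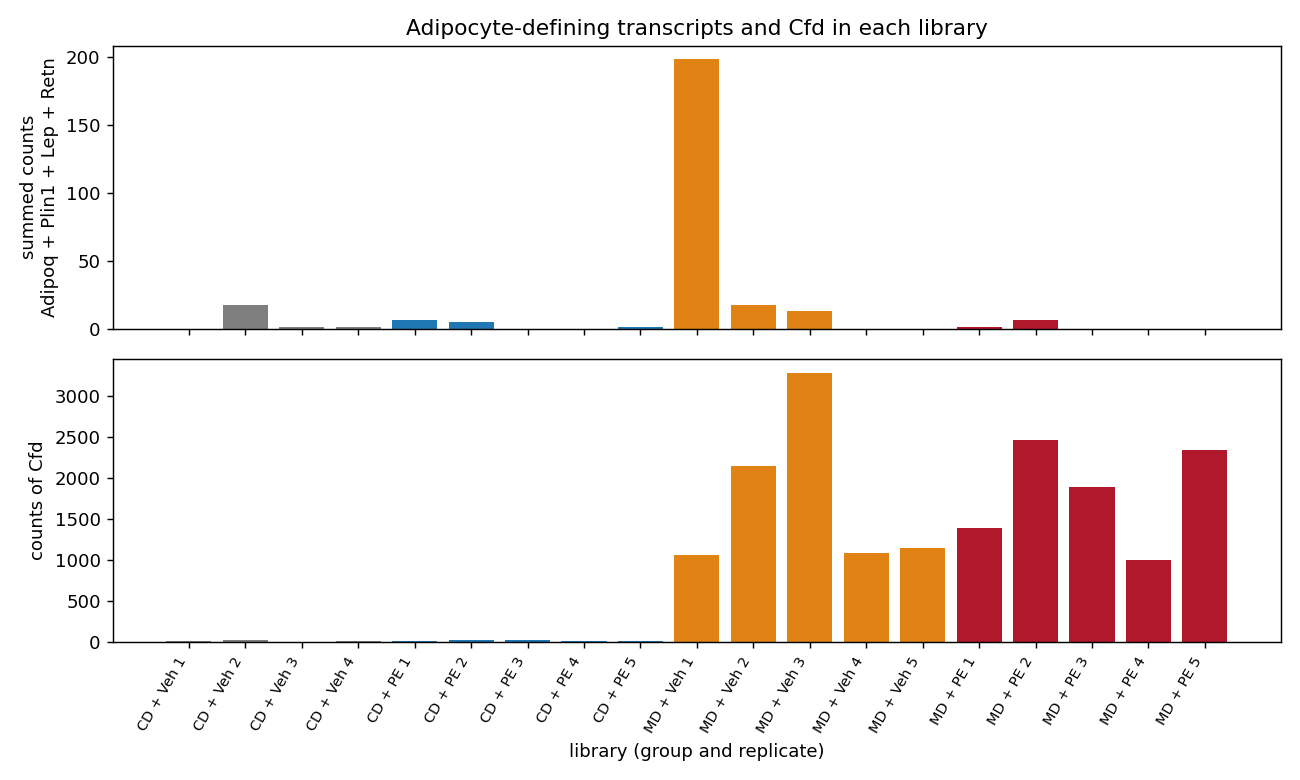
Counts per library, the sum of Adipoq, Plin1, Lep and Retn above and Cfd below, with bars from 0 coloured by group. The sum reaches 198 in MD + Veh replicate 1 and is at most 17 in the other 18 libraries, while Cfd is between 996 and 3286 in all 10 MD libraries.

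PPARG itself differed by diet. Pparg was at 6.97 ± 3.22 CPM (SD) on CD and 13.04 ± 1.30 CPM on MD with vehicle, and at 9.02 ± 2.79 and 13.7 ± 3.88 CPM with PE. It rose by 0.91 ± 0.271 on the log2 scale between CD + Veh and MD + Veh (adjusted p = 0.0316 by edgeR) and differed by 0.60 ± 0.254 between the PE groups (adjusted p = 0.166). With PE it differed by 0.38 on CD (adjusted p = 0.527) and 0.08 on MD (adjusted p = 0.926). Of the 18 genes listed as PPARG and adipogenic regulators, 16 were tested. Over all genes, 4.74% were called higher and 5.63% lower between MD + Veh and CD + Veh, or 4.42% and 4.65% without MD + Veh replicate 1. Between MD + Veh and CD + Veh, 2 were called higher (Pparg and Zfp423, the latter with an adjusted p of 0.0895 without MD + Veh replicate 1) and none lower, or 1 higher (Pparg) and 1 lower (the coactivator Ppargc1a, adjusted p = 0.0221) without that library. Between MD + PE and CD + PE, where 2.92% of genes were called lower, 1 was, Cebpa, a C/EBP factor that hepatocytes share with adipocytes, by -0.40 (adjusted p = 0.00737), and without MD + Veh replicate 1 Ppargc1a was the second (adjusted p = 0.0462). The median over the 16 was 0.01 and 0.04, against -0.0042 and -0.02 over all genes tested, and no regulator was called for PE.

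Of 14 other lipid droplet genes, 6 were called higher and 1 lower between MD + Veh and CD + Veh, beside 4.74% and 5.63% of all genes, with a median of 0.44 over the list. Plin2, the main droplet coat of hepatocytes, rose by 0.55 ± 0.164 (adjusted p = 0.0303), and Plin5, which couples droplets to mitochondria, by 0.54 ± 0.152 (adjusted p = 0.0237). Fitm1, which partitions triglyceride into droplets, had the largest rise, 1.76 ± 0.224 (adjusted p = 3.62e-05). Abhd5, the coactivator of the lipase ATGL, fell by 0.64 (adjusted p = 0.00155). Between MD + PE and CD + PE, Hsd17b11 and Mgll were called higher, and Plin2 differed by 0.07 ± 0.153 (adjusted p = 0.832). With PE on CD, where 1.22% of genes were called higher and 1.7% lower, Abhd5 fell by 0.66 (adjusted p = 0.00591) and no other gene of the list was called, and on MD none was.

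Of 13 tested among 15 other PPAR target genes, 5 were called higher and none lower between MD + Veh and CD + Veh, with a median of 0.74. Over all genes, 4.74% were called higher and 5.63% lower. Lpl, the lipase that releases fatty acids from lipoproteins, rose by 2.42 ± 0.407 (adjusted p = 0.000546), or 1.91 without MD + Veh replicate 1. Pdk4 was called with all libraries (adjusted p = 0.0366) and had an adjusted p of 0.179 without that library, and Acsl1, Ehhadh and Acadm were the other 3. Between the PE groups Ehhadh and Acadm were called higher, beside 1.69% of all genes. With PE on CD, Acadm, a dehydrogenase of fatty acid oxidation, rose by 0.48 ± 0.127 (adjusted p = 0.0422), and on MD no gene of this list was called. Of 11 tested among 12 acyl uptake and acylglycerol genes, 3 were called higher (Slc27a4, Gpat4 and Agpat2) and 2 lower (Dgat2 and Lpin1) between MD + Veh and CD + Veh, with the 2 lower calls lost without MD + Veh replicate 1. These calls stand beside the same 4.74% and 5.63% of all genes. Gpat3 and Gpat4 were called higher between the PE groups, and no gene of the list was called for PE. The genes named from these lists outside Pparg, Plin2, Plin5 and the PE calls were chosen after their values were seen.

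Cd36 and Fabp4 are also made by capillary endothelium and macrophages. Of 12 endothelial markers, 0 were called between MD + Veh and CD + Veh and 1, Ptprb, was called higher on MD between the PE groups, and their sum was 246 to 296 CPM in CD + Veh and 252 to 344 in MD + Veh. Of 12 macrophage markers, 3 were called higher (Gpnmb, Itgax and Lyz2) and 1 lower (Cd9) between MD + Veh and CD + Veh, or 1 and 1 without MD + Veh replicate 1 (beside 4.42% and 4.65% of all genes then), and the sum went from 208 to 284 CPM on CD to 348 to 433 CPM on MD with vehicle, and from 182 to 834 CPM to 243 to 433 CPM with PE. The 834 CPM were in CD + PE replicate 2, and the other 4 libraries of that group had 182 to 213 CPM. Gpnmb was also called between the PE groups. Of 11 stellate cell and fibroblast markers tested, none was called with vehicle and 1, Reln, between the PE groups. All 9 skeletal muscle markers tested were called higher in MD + Veh than in CD + Veh and none without MD + Veh replicate 1. The part of these cells in the members' levels was not tested.

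Gene models on opposite strands overlap 7 of the 9 members. Per the study's methods the libraries were stranded, and Salmon was left to detect the library type itself. The partners are protein-coding for Mogat1 (BC035947) and Plin4 (Hdgfl2) and long noncoding RNA genes for Cidea, Cidec, Cd36, Fabp4 and Adipoq. In GRCm39 the members lie on 9 different chromosomes, among them Cfd at chr10:79726668-79728496, Cidec at chr6:113400691-113412721, Mogat1 at chr1:78487628-78514810, Cd36 at chr5:17986432-18094067, Fabp4 at chr3:10268785-10273737, Plin1 at chr7:79369966-79382718, Plin4 at chr17:56406617-56416931 and Adipoq at chr16:22964106-22976810.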

How the data were processed

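Bulk liver RNA was sequenced from poly(A)-selected libraries. Per the labels and the study's methods, the authors trimmed reads with fastp 0.23.4, quantified transcripts of GENCODE (GRCm39) with Salmon 1.10.3 and used tximport to reach gene level. The authors deposited estimated counts, written as whole numbers and not normalized, for 55836 symbols in 19 libraries. The authors' own comparisons used DESeq2. The members and gene lists were chosen with earlier results of these data known.

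The analysis used edgeR 4.0.16 in R 4.3.3, with TMM scaling, filterByExpr by group (13597 genes kept), 1 coefficient per group over all libraries, and the quasi-likelihood F test with Benjamini-Hochberg adjustment. Genes were called where adjusted p was under 0.05 and log2 fold change 0.38 or more in size. SE is the size of the log2 difference divided by the square root of F. Plin1 and Adipoq were taken from a fit without the filter (26185 genes). Counting intervals are exact and cover counting error only. Libraries of a group were checked for copies, and over 36 pairs none was found. All libraries carry the same batch label. In simulated counts, where 200 genes had a log2 change of 1.5, 76% were recovered for PE on CD (13439 genes) and 82% on MD (13434 genes), with 10 false calls in each. That change is larger than the Plin4 differences with PE (1.04 on CD and 0.99 on MD), and these shares do not give the recovery at such sizes.

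Named were all 9 members, genes of the regulator, droplet, PPAR target and acyl lists called for PE (at most 4 per list) with Pparg, Plin2, Plin5, Lep and Retn, and the 3 genes nearest to Cidec, Cfd and Plin4 by r. Other list genes were chosen after their values were seen. Of the deposited names, 97.9% matched GENCODE vM39. Lists of exocrine pancreas, bile duct and gallbladder, hepatocyte and clock genes were also counted. With vehicle, MD against CD called 0 of 1 pancreas, 0 of 7 duct and 4 of 10 hepatocyte genes tested, and 3 of 3 and 3 of 5 genes of the arms of the clock score. PE on CD called 1 hepatocyte gene lower and 2 genes of the clock score higher, beside 2.92% of all genes called. PE on MD called 1 hepatocyte gene and 5 muscle genes lower and 1 duct gene higher, beside 1.08%. The muscle and duct calls were lost without MD + Veh replicate 1. Alternatives were RLE scaling, DESeq2 1.42.0, no filter or a stricter one, no fold minimum, robust dispersion, the replicate number as a block, library division or clock score as a covariate, only the groups compared, and each library left out. Protein sequences were not used here. 1 further gene called for PE and 1 further promoter sequence are not reported here.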

Additional observations from a re-analysis of the deposited data

Results flagged for a closer look

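Over 40 groups of values examined (9 members and a sum of adipocyte markers, in 4 groups each), 9 had a library whose gap to its nearest neighbour was a large share of the whole range by Dixon's test, where chance gives about 1 in 20 groups if values are normally distributed. Several groups held counts near 0, where a single library with counts among zeros always stands out. The number found is therefore not set against that rate. MD + Veh replicate 1 accounts for 3 of them, with Plin1 at 3.99 CPM (others at most 0.372), Adipoq at 4.18 CPM (others at most 0.557) and the sum of 11 adipocyte markers at 14.2 CPM (others at most 2.04). CD + Veh replicate 2 stood out for Plin1 and Adipoq at 0.430 CPM each, which is 6 counts of either gene. MD + PE replicate 2 stood out for Adipoq at 0.253 CPM, or 3 counts against none in the rest of its group.

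MD + PE replicate 4 stood out for Fabp4 at 37.6 CPM (others 10.6 to 14.1) and for Mogat1 at 3.16 CPM (others 1.22 to 1.71). MD + Veh replicate 3 stood out for Cidea at 9.41 CPM (others 2.16 to 3.56). The hepatocyte sum of MD + PE replicate 4 (56894 CPM) was the lowest of the 19 libraries, and its sums of stellate cell and fibroblast markers (619 CPM, others of the group 249 to 398) and of macrophage markers (433 CPM) were the highest of its group. The part of these in its values was not tested. Neither MD + PE replicate 4 nor MD + Veh replicate 3 had more than 2 counts of Adipoq or of Plin1.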

How the results depend on the processing

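No edgeR alternative called a member for PE within a diet or for the interaction with all libraries in the fit. The comparison averaged over both diets, added after the values had been seen, did call Plin4 (log2 1.01, adjusted p = 0.00926 by edgeR). DESeq2 called 1 member, Plin4, for PE on CD (log2 1.04) and 1 on MD (1.00). Leaving out each library in turn gave 0 to 1 members on CD (Plin4 without MD + Veh replicate 5, adjusted p = 0.0461) and 0 on MD, and Plin4 ranged from 0.83 to 1.21 on CD and from 0.79 to 1.18 on MD. Over all genes, the calls for PE on CD moved from 397 to 523 by DESeq2 and 37 with the library division as a covariate, those on MD from 147 to 296, 33, 73 with only the groups compared, 424 with only the first 3 MD + Veh libraries and 77 without MD + Veh replicate 1 and CD + Veh replicate 2. Leaving out each library gave 215 to 426 genes on CD and 56 to 243 on MD. For the interaction the count moved from 1 to 85, 54, 41 with the replicate block and 0 with the clock score.

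The median diet difference over the 7 members past the filter, which their choice fixes, was 3.14 with vehicle and 2.43 with PE. It was 2.42 for the vehicle groups as a ratio of group medians and 1.91 for the PE groups without a filter, where Plin1 and Adipoq enter.

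Direction changed for members with no call. With the library division as a covariate, Cidec (0.83) and Fabp4 (0.90) turned positive on CD, Cidea (0.43) and Mogat1 (0.20) on MD, and the Fabp4 interaction was -0.16. With only the first 3 MD + Veh libraries, Cd36 (-0.14) and Fabp4 (-0.29) turned negative. Leaving out a library, Cidec on CD ran from -0.64 to 0.050, Cidea on MD from -0.39 to 0.31, Cd36 on MD from -0.066 to 0.17, Fabp4 on MD from -0.45 to 0.32, its interaction from -0.33 to 0.45, and the Plin4 interaction from -0.26 to 0.15. The latter was 0.025 without MD + Veh replicate 1 and CD + Veh replicate 2.

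Replicate numbers are shared by the labels of all groups. Over 27 pairs of libraries with the same number, residuals correlated with a median of 0.0284 and above 0.1 in 6 pairs, and 4 of 19 libraries correlated best with their own number, so replicates were treated as unpaired. With the replicate block Fabp4 on MD was -0.00389, no member was called, and calls over all genes were 419 on CD and 178 on MD. The causes of these shifts were not tested. Cidea, Mogat1, Plin1 and Adipoq on CD rest on few counts.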
